A study of Mus musculus with 16 samples.

Results

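The comparison set 4 libraries of cells that carried a vector for MUNC against 4 libraries of cells that carried an empty vector (EV), all labelled MYOD-/-. They were chosen by their labels as 8 of the 16 libraries of the study and were pooled over both media, with the medium and the replicate number as terms of the model. The study sequenced poly(A) RNA of C2C12, a mouse myoblast line from skeletal muscle. Its background is stated as C57BL/6 with the samples, and the reads were not used to check it. All 8 libraries share the CRISPR-Cas9 targeting of MYOD, followed by screening of single cells, and a stable transfection, with EV or with the vector for spliced MUNC. The labels do not name the promoter of the vector, the number of clones or the deleted part of MYOD. The 4 groups are MYOD-/- EV GM, MYOD-/- ov MUNC GM, MYOD-/- EV DM and MYOD-/- ov MUNC DM, with 2 libraries each. GM stands for proliferating and DM for differentiating cells. Whether the replicates are separate cultures is not in the labels, and p-values therefore reflect the spread among these libraries, which could be technical.

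MYOD, encoded by Myod1, is a basic helix-loop-helix transcription factor that switches on the skeletal muscle programme together with Myf5, myogenin and MRF4. In that programme myoblasts leave the cell cycle, fuse and build sarcomeres. MUNC is a noncoding RNA transcribed from a distal regulatory region upstream of Myod1, and it has been studied as an RNA that promotes muscle gene expression. The question here is how cells with the MUNC vector differ from cells with EV, all labelled as lacking MYOD. EV and MUNC were carried by different stably transfected cells. An effect of MUNC and a difference between the transfected lines therefore cannot be told apart in this comparison.

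Levels are given as CPM, read counts divided by a library size that was scaled by the TMM method, always in the order GM replicate 1, GM replicate 2, DM replicate 1 and DM replicate 2. The 8 libraries held between 35.8 M and 83.0 M estimated counts each, with a median of 58.7 M. Differences are log2 fold changes of MUNC minus EV ± SE from edgeR's quasi-likelihood model, which tested 14356 genes.

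MUNC is listed as Gm45923, a long noncoding RNA gene on chromosome 7 (GRCm38, 46371403 to 46372492). Reads of the vector and of the cells' own gene cannot be told apart in its count. Its RefSeq window, with 250 bases before the start and the first 50 transcribed bases, is printed because this is the gene whose transcript the vector supplies and because it lies upstream of Myod1 (46376474 to 46379092), the gene examined next. The window of Dio3, a gene read with MUNC and not with EV, follows with the 250 bases before its start. Capitals mark the TATA box letters TATAAA, searched on both strands, which 13.6% of all 32851 windows of this length contain.
Gm45923, chr7:46371153-46371452, GRCm38.p6, plus strand: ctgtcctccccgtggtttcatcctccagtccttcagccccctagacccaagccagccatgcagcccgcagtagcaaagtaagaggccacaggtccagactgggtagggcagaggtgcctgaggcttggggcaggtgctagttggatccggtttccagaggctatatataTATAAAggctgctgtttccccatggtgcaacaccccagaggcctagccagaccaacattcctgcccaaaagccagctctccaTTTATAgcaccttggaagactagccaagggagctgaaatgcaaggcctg
Dio3, chr12:110278980-110279229, GRCm38.p6, plus strand: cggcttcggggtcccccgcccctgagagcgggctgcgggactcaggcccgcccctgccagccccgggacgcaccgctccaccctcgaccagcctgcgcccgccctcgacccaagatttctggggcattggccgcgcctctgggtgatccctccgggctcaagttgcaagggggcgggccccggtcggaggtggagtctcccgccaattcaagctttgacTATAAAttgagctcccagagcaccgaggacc
A match to these letters is a description of the sequence and is not a measured site.

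Gm45923 was higher in every MUNC library than in every EV library. The EV libraries held 12.8, 1.34, 12 and 2.13 CPM, and the MUNC libraries held 134, 109, 41.8 and 48.8 CPM. The groups did not overlap, the EV libraries of replicate 2 lay below those of replicate 1, and the MUNC libraries were higher in GM than in DM. The log2 fold change was 3.87 ± 0.66 (95% interval 2.34 to 5.40). Even this transcript did not pass edgeR's quasi-likelihood test after Benjamini-Hochberg adjustment (adjusted p = 0.481). With each pair of libraries of 1 medium and replicate number as a block it did (edgeR, log2 fold change 3.75, adjusted p = 0.0295), and over all 18 alternative settings the adjusted p ranged from 7.41e-09 to 1.0. The fold change ranged from 2.59 with replicate 1 alone to 5.33 with replicate 2 alone, and so was positive in both.

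Myod1, the targeted gene, was read in all 8 libraries. The EV libraries held 14.3, 12.2, 23.6 and 31.7 CPM of Myod1, and the MUNC libraries held 8.31, 4.29, 15.6 and 14.5 CPM. Each MUNC library was below the EV library of the same medium and number, while the groups overlapped across media. The log2 fold change was -0.99 ± 0.20 (95% interval -1.45 to -0.53), with an adjusted p of 0.765 in edgeR's quasi-likelihood test, 0.0205 in edgeR with pairs as block and 0.00164 in DESeq2, and it ranged up to 1.0 over all settings. By contrast, the 4 EV libraries labelled WT held 18, 1, 13 and 1 counts of Myod1, against 519, 476, 1271 and 1858 in the EV libraries labelled MYOD-/-. The targeted gene therefore goes against the genotype labels, and every group is named here by its label. Because the position of the deletion is not known from the labels, counts over the whole transcript do not test whether the protein can be made.

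No gene passed the pooled test. With edgeR's quasi-likelihood test, 0 of 14356 genes were called at an adjusted p below 0.05 (0%), and 303 (2.11%) had an unadjusted p below 0.05, of which 189 (1.32%) were higher and 114 (0.794%) lower with MUNC. DESeq2 with the same terms called 22 genes (0.153%), and edgeR with the 4 library pairs as block called 25 (0.174%). Of these, 17 genes were called by both, 11 of them higher and 6 lower, which is 68% of the pair-block calls and 77.3% of the DESeq2 calls. Of the 17 genes, 12 had a mean below 5 CPM. These 17 genes were chosen after their values were seen, because no gene met the naming rule for called genes.

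**Figure D1:**
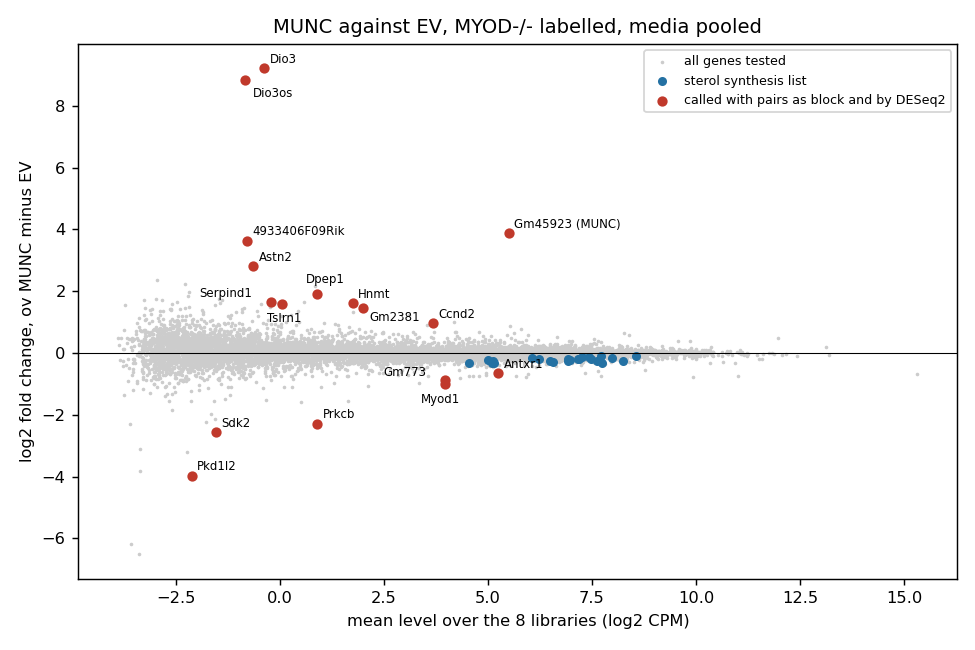
Log2 fold change of ov MUNC minus EV (vertical axis) against the mean level over the 8 libraries in log2 CPM (horizontal axis), for all 14356 genes tested. Red points are the 17 genes called with pairs as block and by DESeq2, blue points are the 23 tested genes of the sterol synthesis list, and the values of genes at 0 counts in 1 group, such as Dio3 and Dio3os, depend on the model's prior count and are no measure of size.

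The intervals of the pooled model describe its precision, here for genes with a mean of at least 5 CPM only. Among the 10074 genes with a mean of at least 5 CPM, the 95% interval of the log2 fold change lay within 1 of 0 for 9813 (97.4%), and its median half-width was 0.24. The interval excluded 0 for 106 of them, without adjustment. Genes below 5 CPM, among them 12 of the 17 genes above, are not covered. The model gave the replicate number the same effect in both media. With pairs as block the common dispersion fell from 0.0287 to 0.0101. A share of 2.11% of all genes tested at an unadjusted edgeR p below 0.05 lies under that threshold, and the pooled test may be conservative. The median log2 fold change over all genes tested was 0.01. EV and MUNC libraries of the same medium and number had correlations of 0.991 to 0.994 taken over genes, and genes are not replicates. Of the variance in log2 CPM, 77.5% went with the medium, 8.74% with the replicate number and 2.48% with the vector. In the same model the medium was called for 9255 genes (64.5%) and the replicate number for 12 (0.0836%).

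Dio3 and Dio3os were read in every MUNC library and in no EV library. Dio3 encodes the deiodinase that inactivates thyroid hormone, and Dio3os is the noncoding gene that lies beside it on chromosome 12 (Dio3 at 110279230 to 110281097 and Dio3os at 110275384 to 110278068). Dio3 had 0 counts in all 4 EV libraries and 80, 218, 19 and 48 counts (1.24, 4.09, 0.283 and 0.55 CPM) in the MUNC libraries. Dio3os likewise had 0 counts in all 4 EV libraries and 94, 131, 12 and 37 counts in the MUNC libraries. Both genes had their highest values in GM, and both also had 0 counts in all 8 libraries labelled WT. Against a floor of 3 counts over the EV group, Dio3 was at least 83.9-fold and Dio3os at least 63-fold higher. With 0 counts in EV, both genes passed the filter on low counts through MUNC libraries alone. These folds and the p-values that follow are therefore no support separate from that selection. In edgeR with pairs as block the adjusted p was 0.00662 for Dio3 and 0.00974 for Dio3os, against 0.183 for both in the pooled model without pairs, and from 2.79e-09 to 0.891 for Dio3 and 4.45e-08 to 0.891 for Dio3os over 17 settings.

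The other genes of the imprinted cluster that holds Dio3 were near 0. Dlk1, Meg3, Rian, Mirg and Rtl1 had at most 9 counts in any of the 8 libraries and were not tested. Meg3 had 0, 5, 4 and 3 counts with EV and 9, 8, 7 and 7 counts with MUNC. Begain, the neighbour with enough counts to test, had a log2 fold change of 0.47 ± 0.47, positive in the pooled fit and -0.2 with replicate 2 alone. In the opposite direction, Gm1140 and Otof, the gene of otoferlin, had 0 counts in all 4 MUNC libraries, against 29 and 37 counts over the EV libraries. Against the same floor over the MUNC group Gm1140 was at least 14-fold lower and Otof at least 17.9-fold lower. Both passed the filter on low counts through EV libraries alone.

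Of the better expressed genes, Ccnd2, which encodes the G1 cyclin D2, was higher with MUNC in each pair. Ccnd2 stood at 8.25, 4.55, 12.8 and 9.56 CPM with EV and at 16.7, 9.37, 18.8 and 21.8 CPM with MUNC. The groups overlapped only across media, and the log2 fold change was 0.97 ± 0.18 (edgeR adjusted p = 0.714, with pairs as block 0.0109, DESeq2 0.00122, and up to 1.0 over all settings). Hnmt, the histamine methyltransferase gene, stood at 2.25, 0.669, 2.66 and 1.38 CPM with EV and at 6.03, 2.38, 6.40 and 5.32 CPM with MUNC. Hnmt was higher in each pair, by a log2 difference of 1.26 to 1.92, and the groups overlapped. Gm2381 stood at 2.25, 1.52, 2.70 and 2.15 CPM with EV and at 5.78, 4.52, 5.95 and 6.93 CPM with MUNC, without overlap.

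Genes lower with MUNC included Gm773, Antxr1 and Prkcb. Gm773 stood at 23.8, 21.5, 16.1 and 19.5 CPM with EV and at 13.8, 9.90, 8.83 and 11.5 CPM with MUNC. The highest MUNC library of Gm773 was below the lowest EV library, and the log2 fold change was -0.87 ± 0.15 (edgeR adjusted p = 0.481, with pairs as block 0.00647, DESeq2 0.000357, and up to 1.0 over all settings). Antxr1, an anthrax toxin receptor that binds extracellular matrix, stood at 14.8, 8.46, 85.7 and 74.4 CPM with EV and at 9.26, 4.63, 61.6 and 46.9 CPM with MUNC. Its difference of -0.66 ± 0.14 on the log2 scale was far smaller than its difference between media. Prkcb, the gene of protein kinase C beta, stood at 1.37, 5.99, 2.10 and 2.68 CPM with EV and at 0.311, 1.87, 0.388 and 0.241 CPM with MUNC. All 4 pairs of Prkcb had the same sign, and the EV and MUNC values overlapped.

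The remaining 7 of the 17 genes were low. Hnmt, Gm2381, Prkcb, Dio3 and Dio3os, described above, also had a mean below 5 CPM over the 8 libraries. 4933406F09Rik had the smallest unadjusted p of the pooled edgeR test, 5.43e-06, and an adjusted p of 0.078. It stood at 0.0515 to 0.137 CPM with EV and at 0.75 to 1.33 CPM with MUNC. Genes this low can pass the filter on low counts through the higher vector group alone. Astn2, the astrotactin gene, had a log2 fold change of 2.81 ± 0.34, and Dpep1, a membrane dipeptidase gene, one of 1.90 ± 0.29. Serpind1, the gene of heparin cofactor II, had 1.65 ± 0.21 and Tslrn1 had 1.59 ± 0.26. Lower with MUNC were Sdk2, an adhesion molecule gene, at -2.56 ± 0.35, and Pkd1l2 at -3.97 ± 0.65. Of these, 4933406F09Rik, Astn2, Serpind1 and Tslrn1 lay without overlap above EV and Sdk2 and Pkd1l2 without overlap below it, whereas Dpep1 overlapped. Over all genes tested, 32 (0.223%) had all 4 MUNC libraries above all 4 EV libraries and 32 (0.223%) below them.

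**Figure D2:**
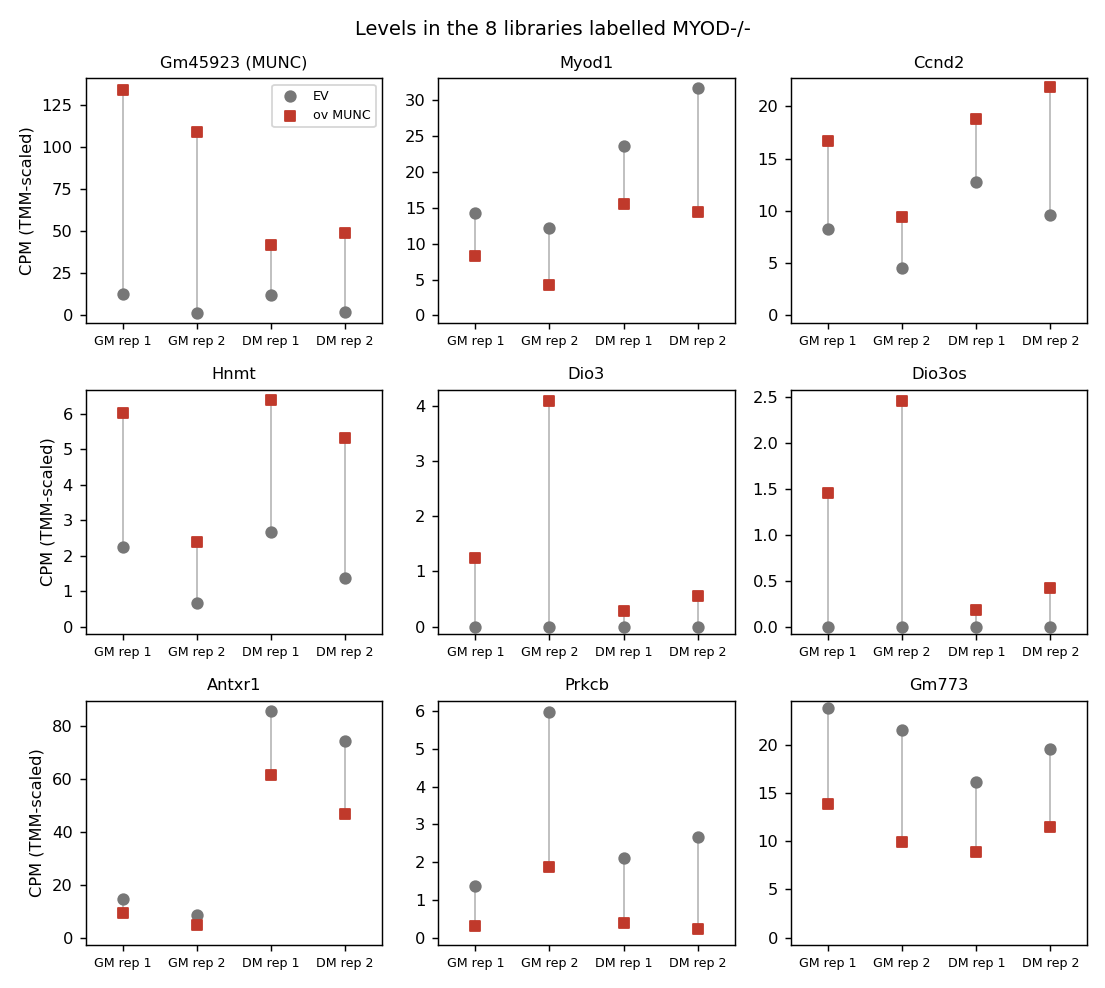
CPM (vertical axis, a linear scale of its own in each panel) of 9 genes in the 8 libraries labelled MYOD-/-, with grey circles for EV and red squares for ov MUNC, joined within a medium and replicate number. MUNC lay above EV in all 4 pairs for Gm45923, Ccnd2, Hnmt, Dio3 and Dio3os, and below it in all 4 pairs for Myod1, Antxr1, Prkcb and Gm773.

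No muscle regulator other than Myod1 had an unadjusted p below 0.05 in the pooled test. Of 20 tested genes of the list of myogenic regulators, 0 were called in the edgeR test. An unadjusted p below 0.05 was found for 1, Myod1, beside 2.11% of all genes tested. With pairs as block edgeR called Myod1 alone in the list, and 1 gene was higher and 1 lower at an unadjusted p below 0.05, beside 3.18% and 2.57% of all genes tested. The median log2 fold change was -0.02. Myf5, an early myoblast factor, stood at 89.1, 157, 80.9 and 80.1 CPM with EV and at 92.4, 114, 74.8 and 105 CPM with MUNC. The 95% interval of the log2 fold change of Myf5 was -0.38 to 0.28. Myog, which encodes myogenin, stood at 0.33, 0.129, 21.3 and 23.2 CPM with EV and at 0.482, 0.0375, 32.8 and 26.2 CPM with MUNC. It was higher in DM than in GM with either vector. The log2 fold change of Myog was 0.34 ± 0.35 in the pooled fit and 0.37 with pairs as block (edgeR adjusted p = 0.759). From the list of myoblast fusion, Mymk, the gene of the fusion protein myomaker, stood at 0.99, 0.257, 19.7 and 18.3 CPM with EV and at 1.12, 0.337, 39.8 and 22.7 CPM with MUNC, and its difference of 0.50 ± 0.27 was positive in all 4 pairs (with pairs as block 0.58, edgeR adjusted p = 0.312). With the replicate 1 libraries alone, 1 of the 18 settings, both genes passed the edgeR test, Myog at 0.62 (adjusted p = 0.0465) and Mymk at 0.90 (adjusted p = 0.0285). With replicate 2 alone they stood at 0.07 and 0.32, and over all settings the adjusted p of both ranged up to 1.0. Myh8, Mef2c and Pax7 had at most 8 counts in any of the 8 libraries and were not tested.

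More sarcomere genes were higher than lower, and none was called. Of 40 tested genes of the list, 0 were called, and 5 were higher (Myl4, Tmod1, Myh3, Tnni1 and Xirp2) and 0 lower at an unadjusted p below 0.05 in the edgeR test, beside 1.32% and 0.794% of all genes tested. With pairs as block 11 were higher and 3 lower at an unadjusted p below 0.05, beside 3.18% and 2.57%, and 0 were called. A total of 8 were higher in all 4 pairs (20%, beside 6.94%), and 3 were lower in all 4 (7.5%, beside 5.31%). Some of these signs rest on few counts or nearly equal values. Among the higher, Tnni2 had 0 (EV) and 3 (MUNC) counts in GM replicate 2, and Tnnt2 64.4 and 64.5 CPM in DM replicate 2. Actn3, counted as lower, stood at 9.87 and 9.86 CPM in GM replicate 1. Myh3, the embryonic myosin heavy chain gene, stood at 0.137, 0.154, 202 and 228 CPM with EV and at 0.264, 0.187, 305 and 252 CPM with MUNC. Its log2 fold change was 0.40 ± 0.13 (95% interval 0.10 to 0.71). Myl4, the embryonic light chain gene, stood at 1.81, 1.31, 12.8 and 9.78 CPM with EV and at 2.16, 1.80, 22.8 and 14.6 CPM with MUNC, a log2 fold change of 0.56 ± 0.13. Other contractile genes scattered around 0 in the pooled fit, such as Acta1 (0.21 ± 0.40), Tnnt3 (0.26 ± 0.45) and Actc1 (-0.03 ± 0.35). Ckm (0.09 ± 0.34), which is not in this list, was also near 0. In the DM pairs Acta1 stood at 0.76 and 0.30, Tnnt3 at 0.59 and 0.46, and Actc1 at 0.32 and -0.27. The signs of these 3 genes differed between the GM pairs. The list's median was 0.18, and its medians in the 4 pairs were 0.09, 0.04, 0.23 and 0.06. In bulk RNA, a larger share of differentiated cells and more of these transcripts per cell cannot be told apart.

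The genes of the cell cycle list, which does not hold Ccnd2, did not separate the vectors. In the cell cycle list, 0 of 51 tested genes were called, 0 had an unadjusted p below 0.05 in the edgeR test, and none was higher or lower in all 4 pairs. Fold changes in that list ran from -0.14 to 0.16 on the log2 scale. Mki67, the proliferation marker Ki-67, stood at 533, 425, 189 and 146 CPM with EV and at 579, 428, 140 and 192 CPM with MUNC. It was higher in GM than in DM with either vector. Cdkn1a, the cell cycle inhibitor p21, stood at 157, 127, 200 and 256 CPM with EV and at 158, 153, 245 and 239 CPM with MUNC, a log2 fold change of 0.11 ± 0.11.

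Of the 30 lists, sterol synthesis had the highest share of genes with 1 sign in all 4 pairs. Of 23 tested genes, 18 were lower with MUNC in all 4 pairs (78.3%, beside 5.31% of all genes tested), and 0 were higher in all 4. The edgeR test called 0 of them, and 1 was lower at an unadjusted p below 0.05, beside 0.794% of all genes tested. With pairs as block 17 were lower at an unadjusted p below 0.05, beside 2.57% of all genes tested, and again 0 were called after adjustment. The differences were small: log2 fold changes ran from -0.32 to -0.09, with a median of -0.22, and the medians in the 4 pairs were -0.15, -0.11, -0.27 and -0.32. Hmgcs1, the HMG-CoA synthase gene, stood at 309, 117, 425 and 489 CPM with EV and at 273, 101, 301 and 421 CPM with MUNC. The EV libraries of Hmgcs1 in GM differed from each other by more than EV and MUNC did in any pair. Mvk, the mevalonate kinase gene, stood at 40.3, 25.5, 36.8 and 53.3 CPM with EV and at 36.3, 20.0, 36.2 and 33.6 CPM with MUNC. Genes of this pathway are known to share the SREBP regulators, so the 18 genes are not independent observations. Only some of the 18 were followed through the alternative settings, and Mvk and Nsdhl, for example, were not. Of those followed, Fdps, Hmgcs1, Lss, Sqle and Srebf1 stayed negative in every setting run. Some came close to 0 without 1 library, Fdps at -0.01, Hmgcs1 at -0.02, Lss at -0.01 and Sqle at -0.03. The pooled value of Mvd went to 0.0 without 1 library. Fdft1, Idi1, Insig1 and Srebf2, which are not among the 18, turned positive in at least 1 fit that left out a single library.

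The windows before 3 of these genes are printed because 18 genes of the list were lower in all 4 pairs. The capitals mark CCAAT box letters (CCAAT, on both strands) and, in Hmgcs1, also the sterol regulatory element TCACNCCAC, and these motifs do not overlap here.
Hmgcs1, chr13:119690101-119690350, GRCm38.p6, plus strand: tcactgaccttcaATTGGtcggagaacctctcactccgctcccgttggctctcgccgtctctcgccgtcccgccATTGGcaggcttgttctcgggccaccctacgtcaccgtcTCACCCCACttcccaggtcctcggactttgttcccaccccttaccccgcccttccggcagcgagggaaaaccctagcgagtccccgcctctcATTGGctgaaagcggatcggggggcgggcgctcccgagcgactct
Mvk, chr5:114444019-114444268, GRCm38.p6, plus strand: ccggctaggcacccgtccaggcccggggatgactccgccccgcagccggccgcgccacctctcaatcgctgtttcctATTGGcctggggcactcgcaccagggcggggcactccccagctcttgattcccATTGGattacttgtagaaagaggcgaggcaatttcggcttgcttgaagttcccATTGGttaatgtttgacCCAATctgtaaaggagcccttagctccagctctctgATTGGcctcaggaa
Nsdhl, chrX:72918271-72918520, GRCm38.p6, plus strand: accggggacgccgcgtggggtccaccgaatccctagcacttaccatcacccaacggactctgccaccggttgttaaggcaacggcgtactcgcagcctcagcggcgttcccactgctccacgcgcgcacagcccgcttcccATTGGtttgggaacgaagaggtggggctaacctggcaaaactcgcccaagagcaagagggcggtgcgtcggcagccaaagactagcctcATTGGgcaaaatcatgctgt
Of the 23 tested genes, 16 had a RefSeq window of 300 bases, and 15 of those (93.8%) held CCAAT, beside 43.5% of the genes tested that had a window and 41.1% of all genes with a window. The letters TCACNCCAC were found in 1 of the 16 (Hmgcs1), beside 1.39% of the genes tested. These shares describe the windows, and no factor's binding was measured.

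**Figure D3:**
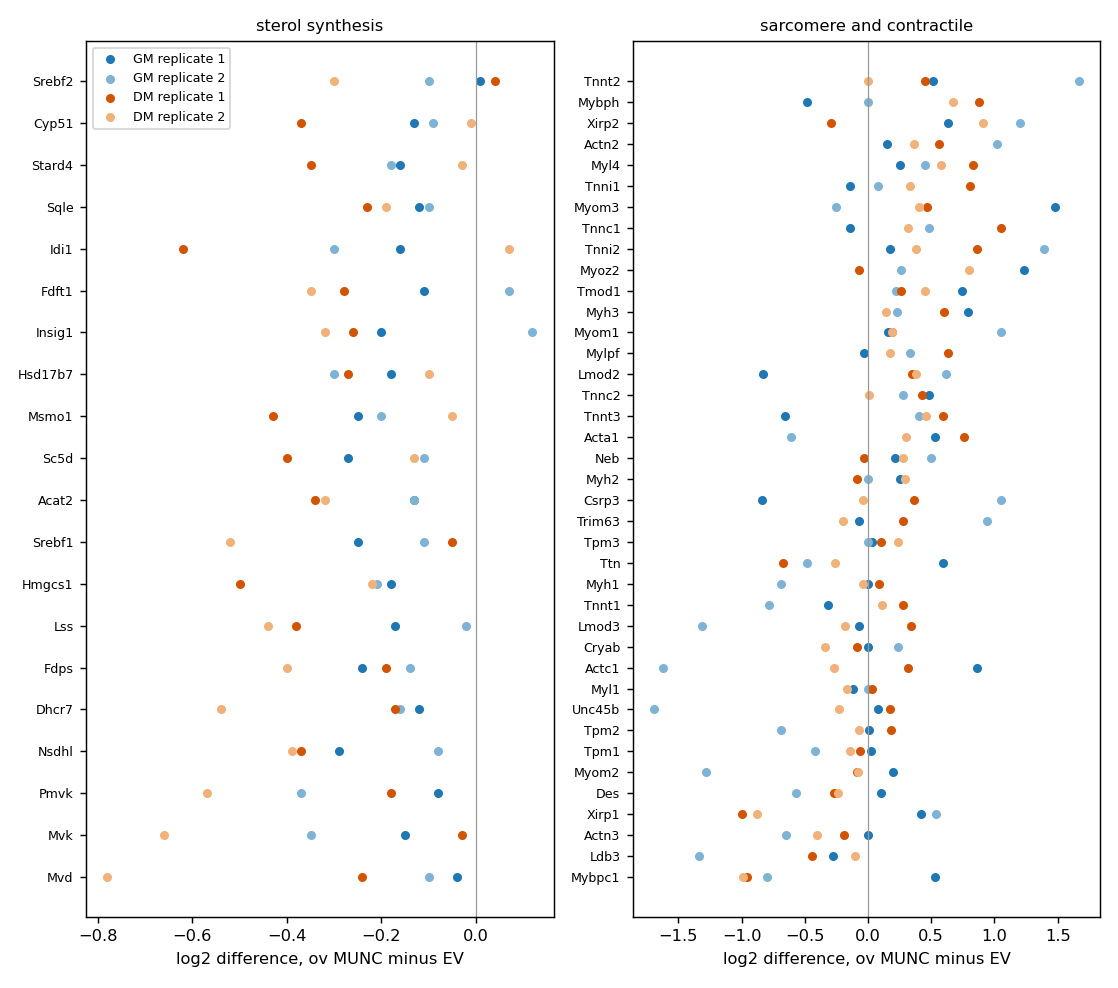
Log2 difference of ov MUNC minus EV (horizontal axis) in each of the 4 library pairs, for 20 of the 23 tested genes of the sterol synthesis list (left) and 39 of the 40 of the sarcomere list (right), ordered by the pooled fold change. In the left panel 16 genes have all 4 points below 0, and in the right panel 8 genes have all 4 above 0 and 2 all 4 below.

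The medians of the interferon response list did not share a sign over the 4 pairs. Of 45 tested genes, 0 were called, 0 were higher and 1 (Tap1, an antigen peptide transporter gene) lower at an unadjusted p below 0.05 in the edgeR test. Over all genes tested these shares were 1.32% higher and 0.794% lower. With pairs as block 7 were lower and 0 higher at an unadjusted p below 0.05, beside 2.57% and 3.18% of all genes tested, and 0 were called. In all 4 pairs 4 were lower (8.89%, beside 5.31%) and 0 higher. The pooled median was -0.16, while the medians in the 4 pairs were -0.1, 0.59, -0.5 and 0.1. In the model over all 16 libraries, described below, the median for the cells labelled MYOD-/- was 0.03. Lists of matrix, TGF-beta, Wnt and Notch, Hox, p53, stress and chromatin genes had pooled medians between -0.11 and 0.07 and 0 calls in edgeR, also with pairs as block. For TGF-beta and smooth muscle, 3 of 29 tested genes were lower and 0 higher at an unadjusted p below 0.05 in the edgeR test, beside 0.794% and 1.32%. Among basement membrane and integrin genes, 5 of 27 were lower (18.5%) and 3 higher (11.1%) in all 4 pairs, beside 5.31% and 6.94%. In the list of imprinted genes and the Igf axis, 7 of 22 tested genes were lower in all 4 pairs (31.8%, beside 5.31%) and 1 was higher (4.55%, beside 6.94%). The edgeR test called 0 of them. At an unadjusted p below 0.05, 1 was higher and 0 lower, beside 1.32% and 0.794% of all genes tested. With pairs as block 5 were lower and 2 higher at that threshold, beside 2.57% and 3.18%. The median was 0.01. The 7 lower genes were Grb10, H19, Igf1, Igf2, Igfbp5, Igfbp7 and Snrpn, with pooled log2 fold changes from -0.77 to -0.13. Igfbp2, which encodes a binding protein of insulin-like growth factors, had the smallest p. Igfbp2 stood at 82.5, 60.8, 251 and 237 CPM with EV and at 132, 78.6, 382 and 262 CPM with MUNC, higher in all 4 pairs, with a log2 fold change of 0.45 ± 0.11. H19 stood at 1030, 86.4, 1860 and 1730 CPM with EV and at 757, 3.79, 1280 and 1110 CPM with MUNC. Both GM libraries of replicate 2 were far below the rest for H19, and its log2 fold change was -0.77 ± 1.00.

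**Figure D4:**
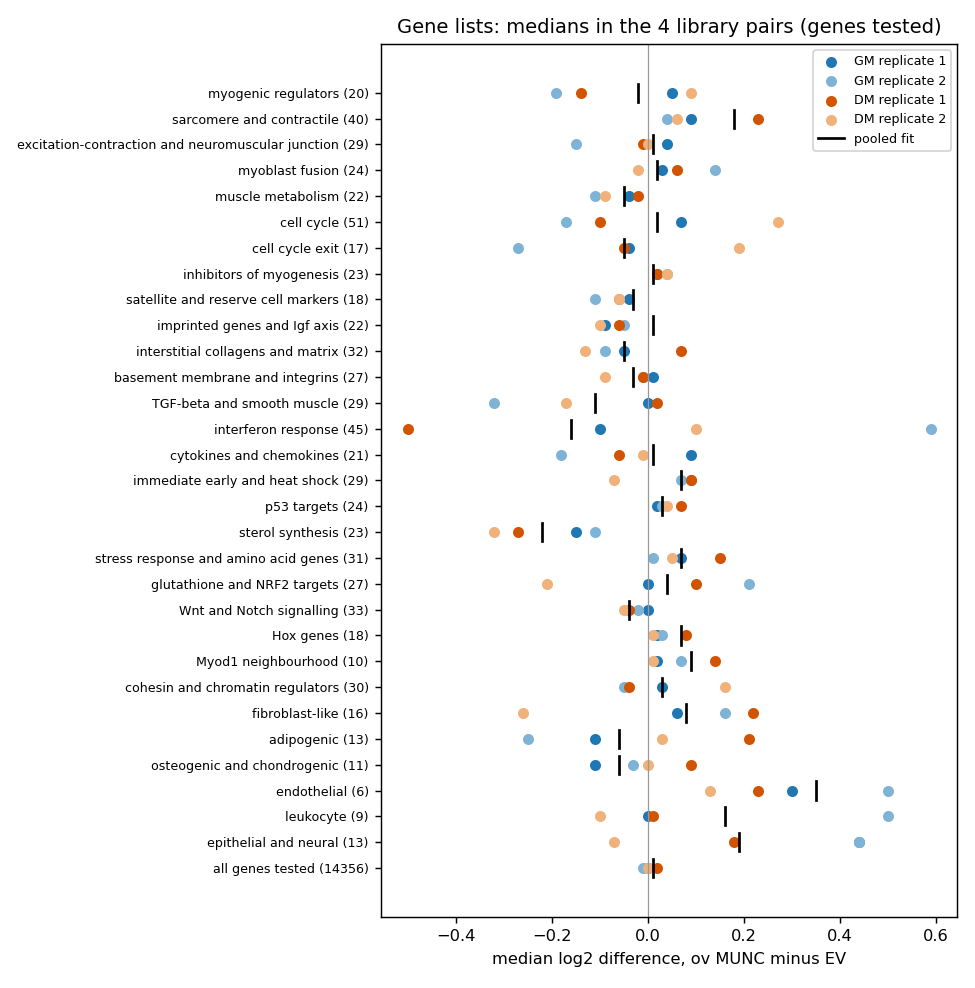
Median log2 difference of ov MUNC minus EV (horizontal axis) of each gene list, with the number of its tested genes in brackets, in each of the 4 library pairs (coloured points) and in the pooled fit (black bars). The pooled median of the sterol synthesis list is -0.22, and that of all genes tested is 0.01.

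Markers of the myoblast identity were read in all 8 libraries. Des stood at 4.20 to 21.9 CPM, Cdh15 at 1.37 to 116 CPM, Itga7 at 158 to 941 CPM and Chrna1 at 125 to 581 CPM. Cdh15, the M-cadherin gene, was at 4.66 CPM (EV) and 1.37 CPM (MUNC) in the GM libraries of replicate 2 and at 80.8 CPM or more in the other 6, so these 2 libraries stood apart with either vector. Zrsr1 took 0.0088% to 0.0129% of the counts in replicate 1 and 1.49% to 13.0% in replicate 2. Another 6 lists cover other cell types. They held 9 tested genes for leukocytes, 6 for endothelium and 13 for epithelium with neurons. The others were fat with 13, bone with cartilage with 11 and fibroblasts with 16. Over these 6 lists the pooled edgeR test called 0 genes. At an unadjusted p below 0.05, 5 were higher and 0 lower in that test, beside 1.32% and 0.794% of all genes tested. With pairs as block edgeR called 1 gene in the endothelial list, Cdh5, and 1 in the epithelial and neural list, the neurofilament gene Nefm, both higher with MUNC. That test called 0.174% of all genes tested, and DESeq2 called neither Cdh5 nor Nefm. Of the 13 tested epithelial and neural genes, 3 were higher in all 4 pairs (23.1%, beside 6.94%) and 1 lower (7.69%, beside 5.31%), with a median of 0.19. Nefm, named after its values were seen, stood at 7.70, 36.0, 4.61 and 3.42 CPM with EV and at 17.5, 59.4, 11 and 6.21 CPM with MUNC. In the endothelial list 6 of 13 genes were tested, 2 of them higher in all 4 pairs (33.3%, beside 6.94%) and 0 lower, with a median of 0.35. Cdh5, the VE-cadherin gene, had a log2 fold change of 1.65 ± 0.52 in that list (edgeR with pairs as block, adjusted p = 0.0109, and 0.0109 to 1.0 over 17 settings). Levels of Cdh5 were low, at 0.357, 2.26, 0.167 and 0.154 CPM with EV and 0.963, 6.96, 0.537 and 0.608 CPM with MUNC. Its adjusted p in DESeq2 was 0.253. The endothelial gene Pecam1 had a log2 fold change of -0.22 and Vwf one of 0.16. The part of these markers and of the replicate difference in the results was not tested.

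Within single media the edgeR test called 0 genes in GM (0%) and 0 in DM (0%), with 186 (1.3%) and 179 (1.25%) at an unadjusted p below 0.05. DESeq2 called 4 genes in GM and 7 in DM. The interaction of MUNC with the medium called 0 genes in edgeR (0%), with 92 (0.641%) at an unadjusted p below 0.05, and 2 in DESeq2. The smallest interaction p was that of Xirp1, which encodes an actin-binding protein of muscle. Xirp1 stood at 7.51, 14.8, 24.8 and 47.2 CPM with EV and at 10.0, 21.5, 12.4 and 25.7 CPM with MUNC. It was higher with MUNC in both GM pairs (log2 0.48) and lower in both DM pairs (-0.94), and the interaction of -1.42 did not pass adjustment. Sprr1a, a cornified envelope gene, went the other way, with -0.52 in GM and 0.69 in DM.

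The response to MUNC differed from that of the cells labelled WT for many genes. In a model over all 16 libraries, edgeR called the difference between the responses, MYOD-/- labelled minus WT labelled, for 4312 of 14972 genes (28.8%), with 2339 (15.6%) higher and 1973 (13.2%) lower in the cells labelled MYOD-/-. The responses share no library. In this model the response of the cells labelled MYOD-/- alone called 2 genes (0.0134%), 4933406F09Rik and Dpep1, and that of the cells labelled WT called 6748 (45.1%). The vectors were not expressed alike: Gm45923 stood at 1820, 2230, 2010 and 2670 CPM in the MUNC libraries labelled WT, against 41.8 to 134 CPM in those labelled MYOD-/- (the former scaled over 16 libraries, the latter over 8). The log2 response of Gm45923 was 3.84 ± 0.72 in the cells labelled MYOD-/- and 9.12 ± 0.88 in those labelled WT, a difference of -5.28 (edgeR adjusted p = 0.0019). The genotype label, the amount of MUNC and the clone history of the lines cannot be told apart in this comparison.

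Several genes had responses of opposite sign. Myod1 had a log2 response of -1.02 ± 0.31 in the cells labelled MYOD-/- and 4.73 ± 0.46 in the cells labelled WT, whose EV libraries held at most 18 counts of it. Ccnd2 had 0.96 ± 0.31 and -4.98 ± 0.36, a difference of 5.94 (edgeR adjusted p = 8.36e-06). In the EV libraries labelled WT Ccnd2 stood at 106, 108, 187 and 317 CPM, and in the MUNC libraries labelled WT at 6.62, 2.06, 9.21 and 5.16 CPM. The latter range overlaps that of the EV libraries labelled MYOD-/-, which were scaled separately. Hnmt had 1.60 and -3.53, and Antxr1 had -0.67 and 1.48. Gm773 was lower in both, by -0.88 and -3.97. Among gene lists, 41 of 45 tested interferon genes had a higher response in the cells labelled MYOD-/- (beside 15.6% of all genes tested), with median responses of 0.03 and -4.98. For sterol synthesis, 9 of 24 tested genes had a lower response (beside 13.2%), with median responses of -0.23 in the cells labelled MYOD-/- and 0.66 in those labelled WT.

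**Figure D5:**
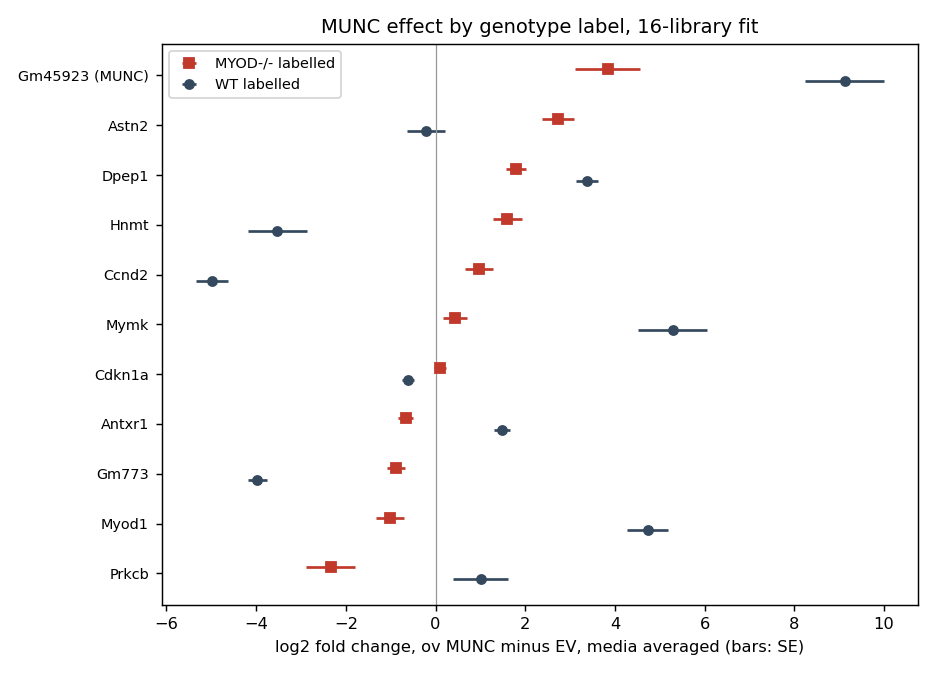
Log2 response to MUNC averaged over media (horizontal axis, bars are SE) of 11 named genes whose response differed between the labels, with red squares for cells labelled MYOD-/- and dark circles for cells labelled WT, from the model over 16 libraries. The squares lie between -2.34 (Prkcb) and 3.84 (Gm45923), and the circles between -4.98 (Ccnd2) and 9.12 (Gm45923).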

How the data were processed

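Poly(A) RNA was sequenced in pairs of 75-base reads. Per the submitters' processing notes, bcl2fastq, kallisto and mm10 were used, with no versions stated. The authors deposited, per the file headers, estimated counts and TPM for each of 35818 transcripts per library, and TPM were not tested. Estimated counts were summed over genes with the RefSeq GRCm38.p6 table for 35492 transcripts and GENCODE metadata for 188 and rounded, giving 24497 genes. A total of 138 transcripts without a symbol, with 0.319% to 0.62% of the counts, were left out. Groups came from the labels.

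In R 4.3.3, edgeR 4.0.16 (TMM, filterByExpr, quasi-likelihood F test, Benjamini-Hochberg adjustment over all genes tested, threshold 0.05) fitted medium, replicate number and vector to the 8 libraries, with 4 residual degrees of freedom. A mean per group plus replicate number gave the media, the interaction and, over 16 libraries, the difference between labels. Pair differences used log2 CPM with a prior count of 2. The test was checked on simulated counts. Members and gene lists were chosen with earlier results of these data known. Named genes were a panel, the largest called genes (none was called), the gene with the smallest p of each list and the 3 smallest interaction p-values, of which examples are given, and others were chosen after their values were seen. Some genes are not reported here singly, but lists are counted whole. Alternatives were DESeq2 1.42.0, other scalings, filters, thresholds and blocks, and leaving out libraries. Promoter windows are RefSeq's, GRCm38.p6. The strand setting of kallisto is unknown from these sources, and fragments of overlapping genes on opposite strands could have been assigned to either.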

Additional observations from a re-analysis of the deposited data

Results flagged for a closer look

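The response to MUNC differed between the cells labelled MYOD-/- and those labelled WT by a direct test of the difference (edgeR quasi-likelihood, adjusted p below 0.05) for 4312 genes. Among the named genes, the difference in log2 response, MYOD-/- labelled minus WT labelled, was -5.28 for Gm45923, -5.74 for Myod1 and -4.86 for Mymk, whose response in the cells labelled WT was 5.29. It was -2.15 for Antxr1, -1.59 for Dpep1 and -3.35 for Prkcb. It was 5.94 for Ccnd2, 5.12 for Hnmt, 3.1 for Gm773 and 2.94 for Astn2. The smallest of these differences was 0.73 for Cdkn1a. With 2 libraries in each group, no group was large enough to examine for single outlying libraries.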

How the results depend on the processing

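The pooled count of 0 genes (edgeR, 303 at an unadjusted p below 0.05) was also 0 without the replicate block, with other scalings, with a filter of 5 CPM in 2 libraries, at an adjusted p below 0.01 and without each of the 8 libraries. It was 25 with the replicate block within each medium, 22 with DESeq2, 2 with all 16 libraries, 4 with no filter on low counts, and 82 and 40 with replicate 1 and replicate 2 libraries only; the cause was not tested. DESeq2 gave 4 genes for GM, 7 for DM and 2 for the interaction, where the edgeR settings gave 0. The replicate numbers did not pair all groups: deviations of same-numbered libraries from their group means correlated across genes at 0.75 between EV and MUNC in GM, 0.22 in DM and 0.07 to 0.27 between media. The difference between labels was called for 2342 genes at an adjusted p below 0.01, for 3153 with no replicate block, and for 3195 to 4702 genes with 1 library left out. Of 76 named genes tested, 62 kept the sign of the log2 fold change in every setting run. The 14 that did not, with the range over leaving out 1 library each, were Acta1 (-0.22 to 0.7), Begain (-0.11 to 1.23), Ckm (-0.19 to 0.19), Fdft1 (-0.35 to 0.01), Idi1 (-0.59 to 0.08), Insig1 (-0.5 to 0.15), Mki67 (-0.13 to 0.19), Mvd (-0.57 to 0.0), Myf5 (-0.18 to 0.11), Myog (-0.02 to 0.69), Sprr1a (-0.16 to 0.32), Srebf2 (-0.18 to 0.01), Tnnt3 (-0.16 to 0.64) and Ugt1a6b (-0.25 to 1.49). The sign also turned for Ckm with all 16 libraries (-0.68) and with DESeq2 (-0.06), for Mki67 (-0.15) and Srebf2 (0.02) with replicate 1 alone, and for Acta1 (-0.13), Sprr1a (-0.08) and Begain (-0.2) with replicate 2 alone. Depth limits the genes with few counts: 12 of the 17 genes called both by DESeq2 and with pairs as block had a mean below 5 CPM.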
